A study of Homo sapiens with 24 samples.

Results

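The proteasome subunit mRNAs are described here across total RNA, polysomal RNA and the ratio between them in A2058 cells, an established human melanoma line. The line is the one that the sample labels and the methods name, while a legend of the paper names A375, another melanoma line, for the translation efficiencies. The members were chosen by name: they are the protein-coding genes of the count table whose Gencode symbol is PSM, a letter from A to G and a number, without PSMB8 and PSMB9. This rule gave 45 of the 19086 protein-coding genes in the table, and no measured value entered it. The choice of this gene family was made with earlier results of these data known. PSMB3 matched the rule in the annotation, but its identifier was not among those of the table used here, and it was not analysed here.

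The proteasome is the protease that degrades most ubiquitin-tagged proteins of the cell. Its 20S core is a barrel of alpha and beta rings, with the proteolytic sites inside on beta subunits, and a 19S particle at the end of the barrel binds ubiquitin, removes it and unfolds the substrate with a ring of ATPases. Assembly chaperones build the rings and the 19S base, and other activators can replace the 19S particle. The subunits are needed in fixed proportions, and in human cells their genes are known to be raised together by the transcription factor NFE2L1 when proteasome activity is short.

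The cells were transfected with a control siRNA (siCTRL) or an siRNA against LSM14A (siLSM14A), at 20 nM by the methods, and were left untreated (NT) or given hydroxyurea (HU), an inhibitor of ribonucleotide reductase, at 10 mM for 2 h. LSM14A is an RNA-binding protein of the LSm family that is implicated in translational control. By the paper, direct repression of translation by the human protein had yet to be shown before its own experiments. Each of the 4 conditions (siCTRL NT, siCTRL HU, siLSM14A NT and siLSM14A HU) had 3 cultures, and from each culture both total RNA and polysomal RNA, taken from the heavy fractions of a sucrose gradient, were sequenced, which makes 24 libraries. All 4 conditions are of 1 cell line, so replicate cultures measure the spread within this line only.

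Library totals ranged from 24789280 to 44897501 counts. LSM14A mRNA was at 81.6, 85.1 and 86.1 CPM (counts relative to the library size scaled by TMM) in total RNA of the siCTRL NT cultures and at 7.30, 8.31 and 6.95 in the siLSM14A NT cultures, a log2 difference of -3.49 ± 0.07 (SE), with an adjusted p of 1.91e-09 in edgeR's quasi-likelihood test. The 7 melanocytic markers checked ranged from 3.47 CPM (the lowest library of MLANA) to 2220 CPM (the highest of PMEL). The 7 markers of keratinocytes, fibroblasts, endothelium and leukocytes that had a row ranged from 0 to 4.79 CPM, with KRT5 at 0 in all libraries.

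Of the 45 members, 43 passed the filter on low counts in every test. The remaining genes were PSMA8, the testis form of an alpha subunit, with 0 to 2 counts per library, and PSMB11, the beta subunit of thymic epithelium, with 0 or 1. In total RNA, PSMB4, a structural subunit of the beta ring, had the highest level per length, 241 CPM per kilobase of exonic sequence as the mean of 12 cultures. It was followed by PSMA7 (122), PSMB7 (108) and PSMB6 (98.5). PSMB4 also ranked first when the length was that of the coding sequence (646) or of the canonical transcript (558). The assembly chaperones PSMG2 (3.33) and PSMG4 (3.49) were at the low end of the 38 tested members with a same-strand overlap of at most 25% of the canonical transcript. These members spanned 3.33 to 241 CPM per kilobase of exonic sequence. Ranks of 38 and 37 for PSMG2 and PSMG4 among these 38 members became 35 and 31 by coding length and 27 and 25 by canonical transcript. Their place at the very end thus holds for the exonic length only, though they stayed in the lower part by the other lengths. The choice of length moved the median of the 10 such subunits of the 20S core from 85.1 per exonic kilobase to 215.6 per coding kilobase and 150.7 per kilobase of canonical transcript, so that levels between members are comparable only roughly.

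The 5 members listed lowest were PSMA1, PSMA2 and PSMA6 of the alpha ring, PSMB10, the immunoproteasome counterpart of PSMB7, and the base chaperone PSMD9. They lay between 0.334 and 3.19 CPM per exonic kilobase, although the alpha ring holds each of its subunits in equal number. They are also the 5 members whose canonical transcript is overlapped on the same strand by an annotated readthrough gene over more than 25% of its bases, with shares of 67% for PSMA1, 100% for PSMA2, 81.4% for PSMA6, 56.1% for PSMB10 and 28.8% for PSMD9. Among the other members, PSMB5 had 10.4% of its canonical transcript overlapped on the same strand by the gene AL132780.1. The readthrough genes of the 5 members had between 0 and 18 counts in any library. STAR does not count a read that falls on more than 1 gene, and the part of this overlap in the low values was not tested. Levels of these 5 members are therefore uncertain, and results below are also given without them where they weigh on a count. PSMC1, the ATPase RPT2, has 76.2% of its exonic bases covered by a gene on the opposite strand and PSMD7 has 31.2%, and the strand setting of the counts was not given in the sources used here.

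**Figure D1:**
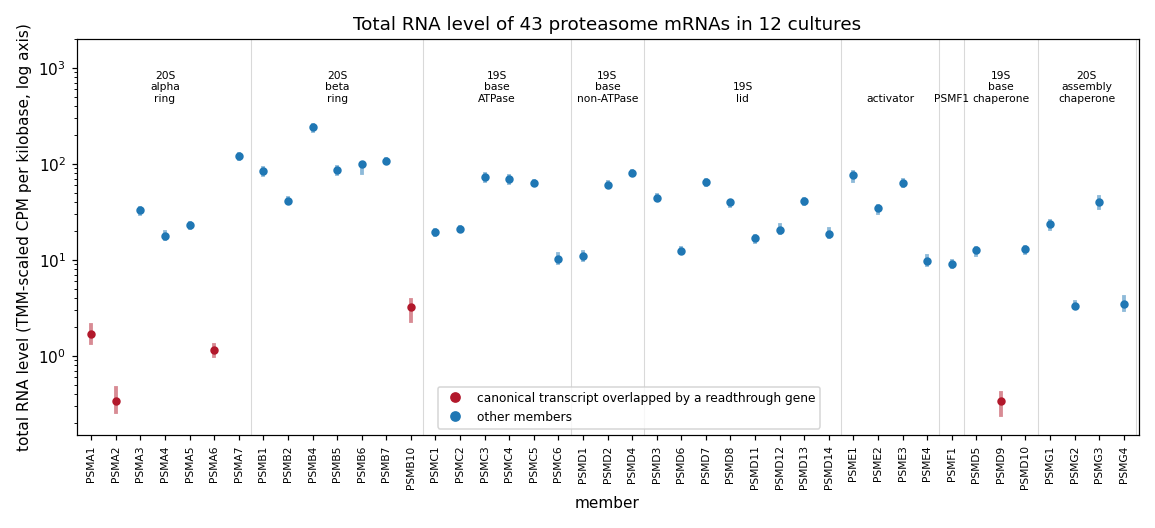
Total RNA level of the 43 tested members in TMM-scaled CPM per kilobase of exonic sequence (log axis), with points for the mean of 12 cultures and bars from the lowest to the highest culture. The 5 members whose canonical transcript is overlapped by a readthrough gene over more than 25% of its bases (red) lie between 0.334 and 3.19. All others (blue) lie between 3.33 and 241.

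The first question is how the members were distributed between total and polysomal RNA. The log2 ratio of polysomal to total RNA was taken relative to the average gene, since TMM scaled each library, and it does not give an absolute share of molecules on polysomes. In siCTRL NT cultures, proteasome mRNAs were mostly higher in polysomal RNA: 26 of 43 members were higher, 3 were lower and 14 did not pass at an adjusted p under 0.05 (edgeR). Among all 12431 genes tested, 31.4% were higher and 32.3% were lower. The median log2 ratio of the members was 0.42, against -0.03 for all genes. Without the 5 members under readthrough genes, 23 were higher and 3 lower. Scaled by library totals alone, the median of all genes moved to -0.33 and that of the members to 0.12, with 19 members higher and 6 lower. Of all 12431 genes, 2517 were then higher and 5624 lower.

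The 3 proteolytic subunits were all higher in polysomal RNA. PSMB5, which carries the chymotrypsin-like site, was at 129, 135 and 130 CPM in total RNA and at 262, 316 and 236 CPM in polysomal RNA of the siCTRL NT cultures. PSMB6, with the caspase-like site, was at 139, 149 and 147 CPM in total RNA and at 296, 343 and 277 CPM in polysomal RNA. PSMB7, with the trypsin-like site, was at 197, 191 and 192 CPM in total RNA and at 397, 430 and 330 CPM in polysomal RNA. The fractions did not overlap for any of these genes. The share of all genes without overlap is not reported here, and 31.4% of all genes were called higher in this comparison. Their log2 ratios were 1.04 ± 0.12, 1.07 ± 0.11 and 0.99 ± 0.12 (SE), with adjusted p-values of 0.000395, 0.000298 and 0.000395 by edgeR, and the gaps between them were no larger than 1 SE.

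Before any correction for GC content, the beta ring had higher ratios than the alpha ring. In siCTRL NT, 6 of its 7 tested members were higher in polysomal RNA, and PSMB2, at 0.29, did not pass. PSMB4 reached log2 ratios of 1.10, 1.26 and 0.83 in the 3 cultures. The alpha ring, which forms the gate of the barrel and has no proteolytic site, had a median of 0.29 in the same cultures, with 3 of 7 members higher and none lower. PSMA5 led the alpha members that no readthrough gene overlaps, at 0.75, 0.69 and 0.48, whereas PSMA4 was at -0.01, 0.23 and 0.34. Over the 12 cultures, the median of the beta members ranged from 0.78 to 1.38 and that of the alpha members from -0.10 to 0.69, so the ranges did not overlap. With the GC correction described below this gap was not seen in every condition: the alpha and beta medians were 0.75 and 0.71 in siCTRL NT, 0.77 and 0.86 in siCTRL HU, 1.04 and 0.96 in siLSM14A NT, and 0.65 and 0.79 in siLSM14A HU. All these ring medians include PSMA1, PSMA2, PSMA6 and PSMB10, whose levels are uncertain, and medians without them are not reported here. With the correction in siCTRL NT, PSMA3, PSMA4, PSMA5 and PSMA7 were at 0.75, 0.60, 1.34 and 0.09. There, PSMB1, PSMB2, PSMB4, PSMB5, PSMB6 and PSMB7 were at 0.81, 0.62, 1.10, 0.70, 0.71 and 0.96. Members of both rings come from the same libraries, and the comparison of the rings is a description of levels and not a test. By the mean of 12 cultures, PSMB1 (0.48) and PSMB2 (0.34) lay below PSMA5 (0.62), so the rings were not separate gene by gene.

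The 19S base was split. Its non-ATPase subunits were all higher in polysomal RNA in siCTRL NT. PSMD2 (RPN1), a docking site for ubiquitin shuttle proteins, had the highest ratio of all members there, with values of 1.30, 1.35 and 0.94 and a fitted log2 ratio of 1.20 ± 0.12 (adjusted p = 0.000293, edgeR), which is 2.30-fold. In CPM, PSMD2 was at 292, 291 and 296 in total RNA and at 719, 741 and 569 in polysomal RNA. PSMD4 (RPN10), a ubiquitin receptor, had a log2 ratio of 1.00, and PSMD1 (RPN2), a scaffold, had 0.90. Of the 6 ATPases, which unfold substrates, 4 were higher, 1 was lower and 1 did not pass. PSMC3 was at 1.19, 1.24 and 0.88 and PSMC4 at 1.20, 1.32 and 0.93. PSMC6 went the other way, at -0.60, -0.34 and -0.11, with a fitted log2 ratio of -0.34 ± 0.13 (adjusted p = 0.0455). PSMC3 and PSMC6 sit in the same ATPase ring.

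The 19S lid held high and low ratios, the lowest of all members among them. PSMD3 (RPN3) was at 1.22, 1.26 and 0.75 and PSMD13 (RPN9) had a fitted log2 ratio of 1.11 ± 0.12 (adjusted p = 0.000323, edgeR). PSMD8 (RPN12) and PSMD11 (RPN6) were also higher. PSMD12 (RPN5) was the lowest of all members in siCTRL NT, at -0.80, -0.32 and -0.21, with a fitted log2 ratio of -0.43 ± 0.14 (adjusted p = 0.0271). PSMD14, the deubiquitinase RPN11, and its partner PSMD7 (RPN8) did not pass in siCTRL NT.

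Among the regulators outside the 26S particle, PSME1, PSME2 and PSME3, which form activator rings, were higher, and PSME4, the large single-chain activator, had a log2 ratio of -0.03. PSMF1, a proteasome inhibitor in vitro, was at 0.82, 0.70 and 0.48. The chaperones of 20S assembly had a median log2 ratio of -0.13. None of the 4 was higher in siCTRL NT, and PSMG4, at -0.12, -0.52 and -0.45, had a fitted log2 ratio of -0.36 ± 0.14 (adjusted p = 0.0499). The chaperones of the 19S base had a median of 0.42, with PSMD9 (0.80) and PSMD10 (0.42) higher and PSMD5 at 0.13.

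The calls of lower members in siCTRL NT did not hold under several settings. With the replicate number as a block, 25 members were higher and only PSMD12 stayed lower, and PSMC6 and PSMG4 were at adjusted p-values of 0.056 and 0.0501 in edgeR. With DESeq2 also 1 member was lower. Without replicate 1 and without replicate 2 of siCTRL NT, 1 and 0 members were lower.

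**Figure D2:**
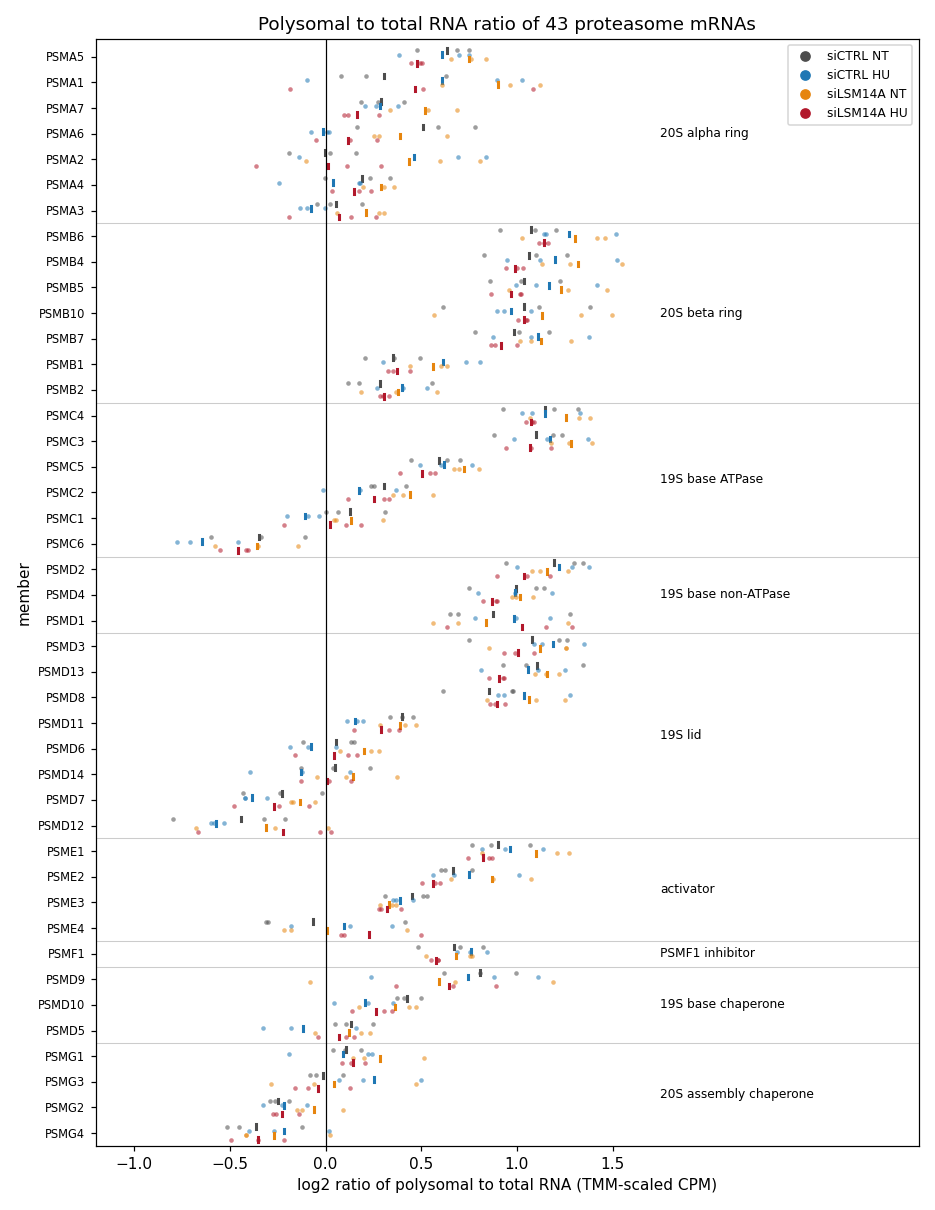
Log2 ratio of polysomal to total RNA (TMM-scaled CPM) for 43 members grouped by role. Points are the 3 cultures of each condition and ticks their mean. PSMB6, PSMC4, PSMC3 and PSMD2 have the highest means over 12 cultures (1.20 to 1.15) and PSMC6 and PSMD12 the lowest (-0.45 and -0.39).

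The other conditions gave the same picture for most members. In siCTRL HU, 24 members were higher and 3 lower, against 36.2% and 37.4% of all genes. In siLSM14A NT, 30 were higher and 0 lower, against 32.1% and 32.3% of all genes, with PSMC6 below 0 at an unadjusted p of 0.0495 and DESeq2 calling 32 higher and 0 lower. Without replicate 1 of siLSM14A NT, 2 members were lower. In siLSM14A HU, 25 were higher and 2 lower, against 32.8% and 34.1% of all genes, but 0 were lower without replicate 1 of that condition, and 3 were lower with the replicate number as a block. Members had median log2 ratios of 0.52, 0.55 and 0.32 in these conditions, where all genes had -0.05, -0.03 and -0.04. The 4 comparisons use separate libraries. In all 4 conditions 21 members were called higher, 9 members were called in none and 30 were called higher in at least 1. The matching counts over all genes are not reported here, so these counts across conditions have no background beside them.

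Those 21 members include PSMA5 of the alpha ring. From the beta ring they include PSMB1, PSMB4, PSMB5, PSMB6, PSMB7 and PSMB10. From the 19S base they include PSMC3, PSMC4, PSMC5, PSMD1, PSMD2 and PSMD4, and from the lid PSMD3, PSMD8 and PSMD13. PSMD9, PSME1, PSME2, PSME3 and PSMF1 complete them. No member was called lower in all 4 conditions. PSMC6 was called lower in 3, PSMD12 and PSMG4 in 2 each and PSMD7 in 1.

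PSMB6 had the highest mean ratio over the 12 cultures, 1.20, with a lowest culture of 0.91 and a highest of 1.52. PSMC6 had the lowest, -0.45, with cultures from -0.78 to -0.11. Their ranges were far apart. Between these ends, neighbours in the order were not separable: the SD of the log2 ratio between cultures of the same condition had a median of 0.17 over members, and steps between neighbours were mostly smaller. It was smallest for PSME3 (0.08) and largest for PSMA1 (0.48), a member with few counts. By their mean, 38 of 43 members were above 0, and PSMC6 and PSMD7 were below 0 in all 12 cultures. The order of the members was much alike between conditions, with Spearman's rho of 0.93 to 0.96 across 43 genes for the 6 pairs of conditions. Across all 12855 genes kept, rho was also 0.94 to 0.95.

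The ratio went with the GC content of the annotated exonic bases of the gene. These bases join all annotated exons and can be far more than those of 1 mRNA. For PSMG2 they were 12490, against 1070 in the canonical transcript. The GC content of canonical transcripts was not analysed here. In each of the 12 cultures, Spearman's rho between the log2 ratio and the GC content of the exonic bases was 0.41 to 0.73 across all genes and 0.38 to 0.70 across the 43 members, as a description of genes that share a library. Coding length showed little relation, with rho of -0.17 to 0.19 across members. The 13 members with a GC content under 42% had a median mean ratio of 0.07, the 14 members from 42% to under 50% had 0.41, and the 16 members of 50% or more had 0.97. PSMC6 (38.2% GC) and PSMD12 (37.2%) are in the first group and PSMB6 (52.9%), PSMC3 (56.4%) and PSMD2 (51.4%) in the last. There were exceptions in both directions. PSMD1, at 39.7% GC, had a mean ratio of 0.93, and PSMG3, at 59.6%, had 0.06.

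A correction for GC content in the fit did not take the members to 0. With it, 37 of 43 members were higher and 2 lower in siCTRL NT, against 26% and 28.7% of all genes, and the median log2 ratio of the members was 0.60. In siCTRL HU, siLSM14A NT and siLSM14A HU, 34, 37 and 34 members were higher, against 27.9%, 27.6% and 28.5% of all genes. In each of these, 2 members were lower, against 29.2%, 28% and 29.9% of all genes. In every condition 41 of 43 members were above 0, while the median of all genes lay between -0.05 and -0.03. The members below 0 were PSMG3 and PSMG4 in every condition, both chaperones of 20S assembly. PSMC6 and PSMD12 turned from lower to higher in siCTRL NT, at 0.35 each, so that the direction of these 2 members holds only without the correction.

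**Figure D3:**
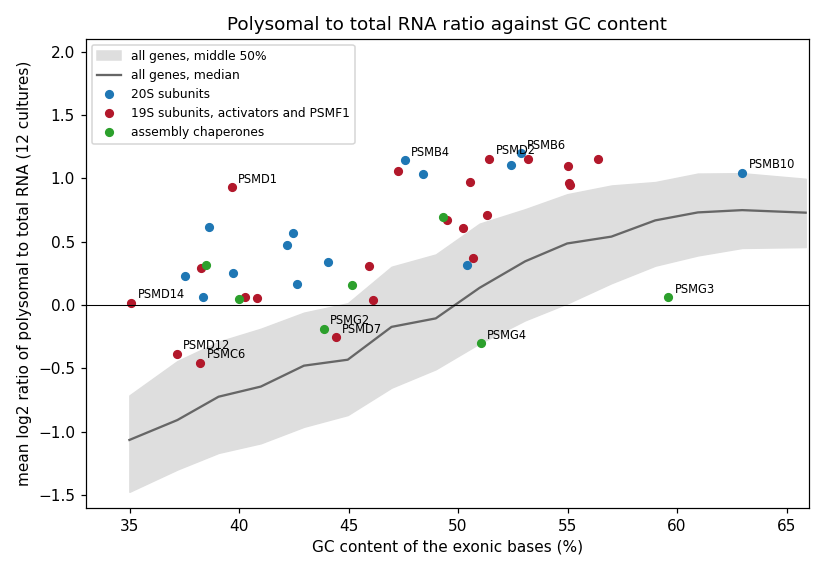
Mean log2 ratio of polysomal to total RNA over 12 cultures against the GC content of the exonic bases (%), for 43 members (points) and for all genes in classes of GC content (line for the median, band for the interquartile range). PSMD1 (39.7% GC, 0.93) lies far above the band, and PSMG3 (59.6% GC, 0.06) and PSMG4 lie at or below its lower edge.

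The next question is whether LSM14A depletion or HU changed these mRNAs. In total RNA, no member passed an adjusted p under 0.05 in any comparison. For siLSM14A NT against siCTRL NT, 0.566% of all genes passed, and for siLSM14A HU against siCTRL HU 0.802%. For HU against NT, 0% passed in siCTRL cells and 0% in siLSM14A cells. DESeq2 also called 0 members in each. At an unadjusted p under 0.05, 3, 0, 0 and 2 members were counted in these 4 comparisons, against 10.8%, 8.54%, 1.44% and 5.2% of all genes. With the replicate number as a block, 1, 7, 2 and 7 members were counted and none passed the adjusted threshold. Of all genes, 45, 855, 15 and 0 passed it with that block. The median log2 difference of the members lay between 0.02 and 0.03 in all 4.

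Total RNA of the subunits differed little between conditions. The 95% interval of every member's log2 difference lay inside -1 to 1 in all 4 comparisons, so that a change by a log2 of 1 lay outside the interval for each of the 43 mRNAs. The median margin of the interval on each side was 0.13, 0.12, 0.12 and 0.13. PSMB1, a beta subunit, had the smallest p on LSM14A depletion without HU, at 201, 192 and 195 CPM in siCTRL NT and 181, 177 and 178 CPM in siLSM14A NT. These groups did not overlap, which a choice by the smallest p favours, and the log2 difference was -0.14 ± 0.05 (adjusted p = 0.329). PSMD12 had the smallest p in the other direction, at 109, 106 and 104 CPM against 109, 117 and 123 CPM (log2 difference 0.13 ± 0.06, adjusted p = 0.452). With HU present, PSMD3 (0.09 ± 0.05) and PSMG1 (-0.13 ± 0.07) had the smallest p-values on LSM14A depletion, both at an adjusted p of 0.673.

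With HU in siLSM14A cells, PSMA6 was at 6.58, 7.0 and 6.45 CPM without it and at 8.08, 8.44 and 7.83 CPM with it. In siCTRL cells, the values were 6.98, 7.18 and 6.69 without HU and 8.29, 8.32 and 7.48 with it. The groups did not overlap in either, and the log2 differences were 0.27 ± 0.10 (adjusted p = 0.855) and 0.21 ± 0.10 (adjusted p = 1). PSMA6 is among the members under a readthrough gene, with low counts. It was named for the smallest p among members above 0 in both comparisons, a choice that favours groups without overlap. The lowest values of the HU comparisons belonged to PSME4 in siLSM14A cells (-0.15 ± 0.07, adjusted p = 0.855) and PSMA2 in siCTRL cells (-0.34 ± 0.17, adjusted p = 1).

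In polysomal RNA no member passed either. For LSM14A depletion, 0.0162% of all genes passed without HU and 0.0653% with HU, and for HU 0% passed in siCTRL cells and 0% in siLSM14A cells. At an unadjusted p under 0.05, 1, 0, 0 and 0 members were counted, against 1.96%, 4.99%, 2.1% and 0.871% of all genes. DESeq2 called 0 members in each. Median log2 differences of the members were 0.12 and -0.07 for LSM14A depletion without and with HU, and 0.05 and -0.14 for HU in siCTRL and siLSM14A cells. The value of 0.05 had no stable sign, at -0.04 with library totals alone and at -0.05 to 0.13 when 1 culture was left out, and that of -0.07 reached 0.02 without replicate 2 of siCTRL HU. Polysomal libraries varied more between cultures, and the median margin of the 95% interval on each side was 0.33 to 0.37. PSMA1, at 7.23, 6.94 and 5.85 CPM in siCTRL NT and at 10.1, 8.98 and 8.58 in siLSM14A NT, had the smallest p (log2 difference 0.46 ± 0.20, adjusted p = 1, edgeR). It is also under a readthrough gene. With HU, PSMD12 was at 67.3, 74.4 and 80.0 CPM in siCTRL cells and at 103, 67.8 and 111 CPM in siLSM14A cells, which overlap (0.35 ± 0.18, adjusted p = 0.739), and PSMB1 was at 311, 309 and 248 CPM against 221, 214 and 259 CPM, which also overlap (-0.32 ± 0.15, adjusted p = 0.739). The other members with the smallest p were PSMA6 (-0.20) for depletion without HU, PSMG3 (0.29) and PSMD5 (-0.30) for HU in siCTRL cells, and PSMD9 (0.21) and PSMA7 (-0.26) for HU in siLSM14A cells.

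The change of the ratio itself between conditions, that is of translation efficiency (TE), was tested as an interaction term between fraction and condition. No member passed in any of the 4 comparisons, where 0%, 0%, 0% and 0% of all genes passed, and DESeq2 called 0 members. At an unadjusted p under 0.05 there was 1 member for LSM14A depletion without HU and none with HU, against 0.87% and 3.85% of all genes. For HU there was 1 member in siCTRL cells and 4 in siLSM14A cells, against 2.31% and 1.41% of all genes. These 6 members are PSMA1 (0.59 ± 0.24) for depletion and PSMA6 (-0.54 ± 0.21) for HU in siCTRL cells, with PSMA7, PSMA5, PSMD13 and PSMB4 for HU in siLSM14A cells, and each had an adjusted p of 0.956 or 1 in edgeR. In the opposite directions the smallest p-values belonged to PSME3 (-0.12), PSMA2 (0.52) and PSME4 (0.18), and for depletion with HU to PSMD12 (0.39) and PSMG3 (-0.29).

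The most one-sided of these comparisons was HU in siLSM14A cells. There, 39 of 43 members had a lower ratio with HU than without, with a median log2 difference of -0.15 against 0.01 for all genes. The comparison was singled out by this count, and the share of all genes below 0 is not reported here. All 7 members of the alpha ring, all 7 of the beta ring and all 6 ATPases were below 0, and PSME4, PSMD1, PSMD12 and PSMD9 were above 0. PSMA7 had a log2 difference of -0.37 ± 0.14, with polysomal levels of 264, 340 and 286 CPM without HU and 238, 269 and 238 CPM with it. Culture by culture, the median ratio over the members was 0.53, 0.63 and 0.54 in siLSM14A NT and 0.35, 0.30 and 0.39 in siLSM14A HU. The 3 cultures of each did not overlap, which the choice of this comparison by its count favours. In siCTRL cells the median ratio was 0.53, 0.50 and 0.41 without HU and 0.60, 0.69 and 0.24 with HU, which overlap. The median log2 difference there was 0.00. For LSM14A depletion the median was 0.10 without HU, with 34 of 43 members above 0, and -0.09 with HU, with 17 above 0. The medians of all genes for depletion were -0.01 without HU and 0.01 with HU. The comparisons share the siLSM14A NT libraries, so a positive value on depletion and a negative value on HU are not separate observations. Members also share their libraries, and no single member passed the adjusted threshold.

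The effect of HU was also compared between siLSM14A and siCTRL cells. No member passed for total RNA, polysomal RNA or TE, where 0%, 0% and 0% of all genes passed, and DESeq2 called 0 members in each. At an unadjusted p under 0.05 there were 0, 0 and 1 members, against 2.9%, 1.07% and 1.9% of all genes. The single member was PSMB1, with a difference of -0.45 ± 0.21 on the log2 scale for TE (unadjusted p = 0.0418, adjusted p = 0.896, edgeR). The log2 difference of its ratio on HU was 0.26 in siCTRL cells and -0.19 in siLSM14A cells, and neither passed. Member medians of the difference were 0.01 for total RNA, -0.12 for polysomal RNA and -0.19 for TE. The TE interval of every member except PSMA1 and PSMA2 lay within -1 to 1. PSMD12 (-0.17) and PSMB4 (0.12) had the smallest p-values for total RNA, PSMA1 (-0.71) and PSMA6 (0.37) for polysomal RNA, and PSMD5 (0.20) was the opposite end for TE.

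**Figure D4:**
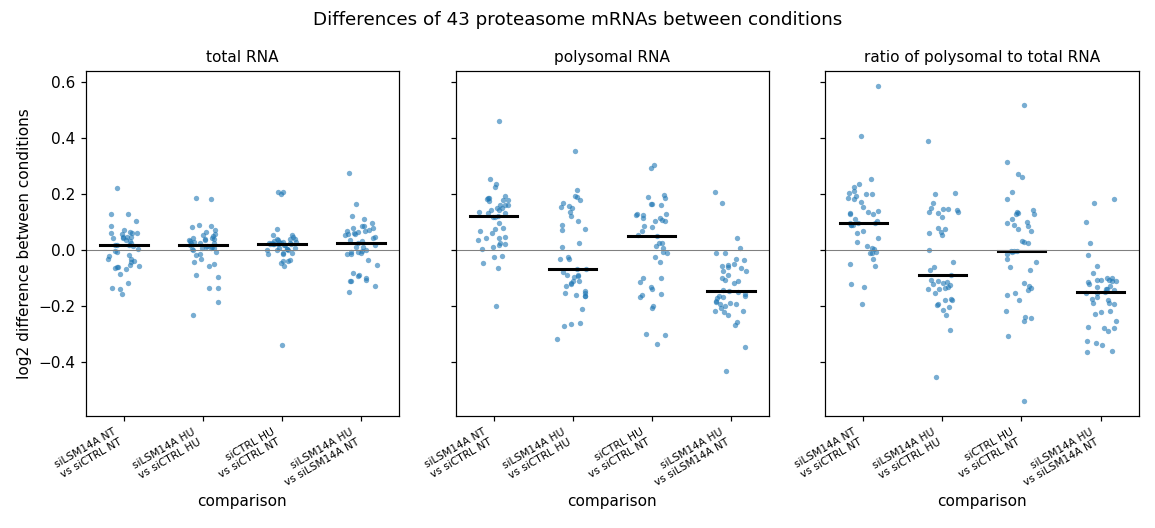
Log2 difference between conditions of the 43 members in total RNA, polysomal RNA and their ratio, for 4 comparisons. Points are members and black lines their median. Total RNA is narrow around 0, with medians of 0.02 to 0.03, and the ratio for HU in siLSM14A cells has 39 of 43 members below 0.

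Other genes of the pathway were followed as a list of 21, without PSM symbols, all of which were tested. In siCTRL NT, 8 were higher in polysomal RNA, 7 were lower and 6 did not pass, with a median log2 ratio of 0.05. Among all genes, 31.4% were higher and 32.3% lower, so the split of the list was near that of all genes. VCP, the ATPase that extracts ubiquitinated proteins, was at 1.73 ± 0.11, ADRM1, the ubiquitin receptor RPN13 of the 19S base, at 1.21 ± 0.16 and PAAF1, a base chaperone, at 0.94 ± 0.13. SEM1, the smallest subunit of the lid, was at -1.33 ± 0.13, below every PSM gene, and the deubiquitinase UCHL5 was at -1.09 ± 0.20. POMP, the chaperone that works with PSMG1 to PSMG4, was at -0.15 and did not pass. NFE2L1 was higher (0.48 ± 0.11), whereas DDI2, the protease that activates it, and NGLY1, which removes its glycans, were lower (-0.79 ± 0.17 and -0.44 ± 0.16). In the other conditions 6 to 9 of the list were higher and 6 or 7 lower, against 32.1% to 36.2% and 32.3% to 37.4% of all genes. Between conditions none of the 21 passed in any of the 15 tests of edgeR. In total RNA of siLSM14A NT against siCTRL NT, PITHD1 was at 0.20, TXNL1 at 0.17 and NFE2L1 at -0.16, at adjusted p-values of 0.295, 0.278 and 0.276 in edgeR.

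Since the proteasome genes are known targets of NFE2L1, which binds the antioxidant response element, the letters TGACNNNGC of its core were searched in RefSeq promoter windows of GRCh38.p14, from 250 bases before to 50 after the gene start, on both strands. Windows were found for 39 of the 45 members, 47 in all. The core was in 13 of the 47 windows (27.7%) and in 13.3% of all 35116 windows. A near form, TGAGNNNGC, was in 14 windows (29.8%) and in 18.3% of all. The sites below are those of a member each of the alpha ring, the lid (with the high ratio of PSMD3 and the low ratio of PSMD12) and the 20S chaperones, with the core in capitals and 10 bases on each side, on the strand of the gene. A match is of letters only, and these libraries do not measure binding.
PSMA4 (chr15:78540650-78540678, plus strand): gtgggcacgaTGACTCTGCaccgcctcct
PSMD3 (chr17:39980760-39980788, plus strand): tcccctttgtTGACTCGGCcatcggcctg
PSMD12 (chr17:67366724-67366752, minus strand): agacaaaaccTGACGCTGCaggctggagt
PSMG2 (chr18:12658689-12658717, plus strand): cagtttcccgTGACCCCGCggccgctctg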

How the data were processed

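The members and lists were chosen with earlier results of these data known. By the methods of the paper, polysomal RNA came from heavy fractions of a 15 to 50% sucrose gradient and total RNA from its input. After adapter trimming, reads were mapped by the authors with STAR 2.6.1a (hg19, Gencode genes), and raw counts per gene, not normalized, were deposited. Of 20345 gene IDs, 19637 matched the Gencode lift to hg19 and 708 did not, and only the 19086 protein-coding genes were tested. Groups came from the sample titles.

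Each test was edgeR 4.0.16's quasi-likelihood F-test in R 4.3.3, with TMM, filterByExpr (minimum count 10, minimum total 15) and Benjamini-Hochberg adjustment over all genes tested. Polysomal and total RNA were compared within each condition, total and polysomal RNA between conditions, and TE as the interaction of fraction and condition, each on the libraries compared. The SE is the log2 difference over the root of F. Ratios per culture are differences of log2 CPM with 0.5 counts added. P-values measure the spread between cultures of 1 line. The tests were tried on simulated counts.

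Members were named with values by rule: of those called, at most the 4 with the smallest p per direction, otherwise the smallest p in each direction, the highest and lowest ratio in siCTRL NT, and PSMB5, PSMB6 and PSMB7.

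Same-numbered total and polysomal libraries were taken to be of 1 culture, since total RNA was the gradient's input by the methods. The titles give replicate numbers and do not state this pairing, and the main tests had no term for it. Deviations of same-numbered libraries from their group means correlated at 0.17, 0.15 and 0.24 in siLSM14A HU, above 0.1 in each pair. In the other conditions they correlated at -0.31 to 0.16. Xtail, which the authors used for TE, was not used. Alternatives were DESeq2 1.42.0, RLE size factors, other count filters, blocks, a loess GC correction (span 0.3), all libraries in 1 fit and leaving out each culture. Library totals alone, canonical transcript length and leaving out members under readthrough genes were chosen after seeing the data. Library totals of 24789280 to 44897501 counts limit members with few counts, such as PSMA2 and PSMD9. The marker PECAM1 was not analysed here. Single values of 1 gene of the pathway list are not reported here.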

Additional observations from a re-analysis of the deposited data

How the results depend on the processing

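No member passed in the 15 tests between conditions under any of 245 combinations of test and alternative run, and the count of members higher in polysomal RNA stayed within 1.5 times its value except with library totals alone. Among 790 repeats for single named members, 754 kept direction and side of the threshold, 17 lost the call, 3 gained it and 16 reversed. Counting error limits the members with few counts, PSMA1, PSMA2, PSMA6, PSMB10 and PSMD9. The causes of the changes below were not tested.

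Library totals alone moved the median of all genes in polysomal against total RNA to values between -0.33 and -0.45. The members' medians were then 0.12 (siCTRL NT), 0.11 (siCTRL HU), 0.20 (siLSM14A NT) and 0.0017 (siLSM14A HU), with 6, 15, 5 and 5 members lower, and 19 and 16 higher in siLSM14A NT and siLSM14A HU. In the same order of conditions, 5624 of 12431, 6458 of 12479, 5878 of 12528 and 6048 of 12377 genes were lower. Of all genes, 2440 and 2561 were higher in siLSM14A NT and siLSM14A HU. The polysomal RNA median of the members for HU in siCTRL cells became -0.035. With the GC correction the ratio medians were 0.60, 0.66, 0.74 and 0.58, and 2 members were lower in siLSM14A NT.

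With the replicate block, 1 member was lower in siCTRL NT, and when GC was corrected in the blocked fit too the medians were 0.60, 0.66, 0.74 and 0.58, with 2 members lower in siLSM14A NT. The block on replicate numbers changed no member's call between conditions, nor did a block on the culture in the TE tests. Over all genes, the block on replicate numbers did change calls in total RNA. For siLSM14A HU against siCTRL HU, 100 genes passed without it and 855 with it. For siLSM14A NT against siCTRL NT, 71 passed without it and 45 with it. Deviations of same-numbered total RNA libraries correlated at 0.331, 0.177 and 0.245 in the former pair of conditions. In the latter they correlated at -0.247, 0.263 and -0.221.

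With RLE size factors, with DESeq2 or with no filter, 1 member was lower in siCTRL NT. With all libraries in 1 fit, 5, 1 and 4 were lower in siCTRL NT, siLSM14A NT and siLSM14A HU, and with at least 10 counts in every library 4 in siLSM14A HU.

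Leaving out 1 culture gave 0 to 3 lower members in siCTRL NT, 0 to 2 in siLSM14A NT and 0 to 2 in siLSM14A HU, and a ratio median of 0.41 to 0.71 in siCTRL HU. In polysomal RNA, the medians ran from -0.14 to 0.022 for depletion with HU, from -0.049 to 0.13 for HU in siCTRL cells and from -0.19 to -0.045 for the difference of the HU effects.

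The reversed values came from the GC correction, without and with the block. In siCTRL NT they were 0.35 and 0.34 for PSMD12 and 0.35 and 0.35 for PSMC6. In siCTRL HU they were 0.20 and 0.20 for PSMC6, 0.36 and 0.36 for PSMD12, and 0.019 and 0.019 for PSMD7. PSMC6 was at 0.39 and 0.38 in siLSM14A NT and at 0.13 and 0.13 in siLSM14A HU. The HU effect on TE between siRNAs was -0.0096 and -0.018 for PSMD5.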
